A study of Mus musculus with 143 samples.

Results

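The regions described here lie around 7 genes that encode transcription factors of the T lineage: Tcf7, Gata3, Bcl11b, Ets1, Runx1, Ikzf1 and Satb1. They were tested for enhancer activity by capSTARR-seq in P5424, a mouse T cell line. A region was a member when its start lay inside a fixed window of build mm9 around a gene, whatever its class. This gave 100 of the 12897 regions in the deposited tables, or 0.775%. The 7 loci had been picked with the reporter values of these tables already known. All reporter values are therefore given as a description, without a test.

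Of the 143 mouse T cell samples in the series, 3 are used here: 2 RNA libraries and 1 input library from P5424. In capSTARR-seq, genomic fragments are captured and cloned into a reporter plasmid, where a fragment that acts as an enhancer raises its own transcription. Activity is the ratio of RNA to input. The labels give the cell line and the cell type and name no genotype, treatment or time for these libraries. The values come from 1 established line and from fragments outside their chromosomal place. Nothing in the labels tells if separate cultures lay behind the replicates, and their spread may be technical. RNA levels of marker genes were not analysed here, so the identity of the line was not checked.

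T cell development depends on a small set of transcription factors that act in overlapping steps. TCF-1, encoded by Tcf7, is induced early by Notch signalling and, with GATA3, starts the T cell programme. Bcl11b encodes a zinc finger factor needed for commitment to the lineage. Ets1, Runx1 and Ikzf1 encode DNA-binding factors of the ETS, Runt and Ikaros families that act from earlier blood cell stages onward. Satb1 encodes a chromatin organiser that is abundant in thymocytes. Genes of this kind are often controlled by several enhancers spread over long distances, and Bcl11b is known for enhancers far from its promoter.

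The windows were chromosome 12 from 108.20 to 109.45 Mb for Bcl11b, chromosome 2 from 9.40 to 10.00 Mb for Gata3 and chromosome 11 from 51.95 to 52.25 Mb for Tcf7. For Ets1 the window was chromosome 9 from 32.30 to 32.80 Mb, and for Runx1 it was chromosome 16 from 92.40 to 93.10 Mb. For Ikzf1 it was chromosome 11 from 11.40 to 11.90 Mb, and for Satb1 chromosome 17 from 51.70 to 52.50 Mb. They held 19 regions at Bcl11b, 2 at Gata3, 8 at Tcf7, 19 at Ets1, 12 at Runx1, 15 at Ikzf1 and 25 at Satb1. Each region was 400 bp long. The tables name no genes, and a region is tied to a gene here only by its window. In the order of protein-coding genes of RefSeq on GRCm38, the next genes were Celf2 and Taf3 at Gata3, Skp1 and Vdac1 at Tcf7, Fli1 and Kirrel3 at Ets1 and Clic6 and Setd4 at Runx1. They were Gm52008 and Setd3 at Bcl11b, 4930512M02Rik and Fignl1 at Ikzf1 and Tbc1d5 and Kcnh8 at Satb1. Whether a region lies in an intron, at a start site or in a neighbouring gene was not determined, because the gene models at hand were of another build.

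The deposited values are FPKM, reads adjusted for the length of a region and the depth of a library, and the fold is RNA FPKM plus 1 over input FPKM plus 1. Reads were recovered from the FPKM steps: the members held 50902 and 56459 reads in the RNA libraries of replicates 1 and 2 and 38741 in the input. Per member the median was 271 and 302 RNA reads and 291.5 input reads, with an input range of 41 to 2393. Over all regions the medians were 308, 324 and 298 reads. Read numbers show counting precision only, since reads are not independent molecules. Below, active means a fold of 1.5 or more in each replicate and strongly active a fold of 3 or more in each.

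Of the 100 members, 9 were active, and over all 12897 regions 8.51% were. The strongly active members were 3, at Satb1, Ikzf1 and Runx1, where the share over all regions was 0.985%. The authors' deposited table classes 6 members as active in both replicates, against 2.70% of all regions. Since these loci were picked on the same values, nothing is read from the shares. Active regions were found at 6 of the 7 loci: 2 each at Bcl11b, Runx1 and Ikzf1, 1 each at Tcf7, Ets1 and Satb1, and 0 of 2 at Gata3. The call depended on the replicate. Taken by itself, replicate 1 put 10 members at 1.5 or more and replicate 2 put 19, against 13.6% and 14.6% of all regions. The call also depended on the zero point. With each replicate centred on the Random class of control regions, 28 members were active and 6 strongly active. Over all regions these shares were 26.9% and 3.53%. All 7 loci then held an active region: 8 at Bcl11b, 7 at Ets1, 5 at Ikzf1, 3 at Satb1, 2 each at Tcf7 and Runx1, and 1 at Gata3.

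**Figure D1:**
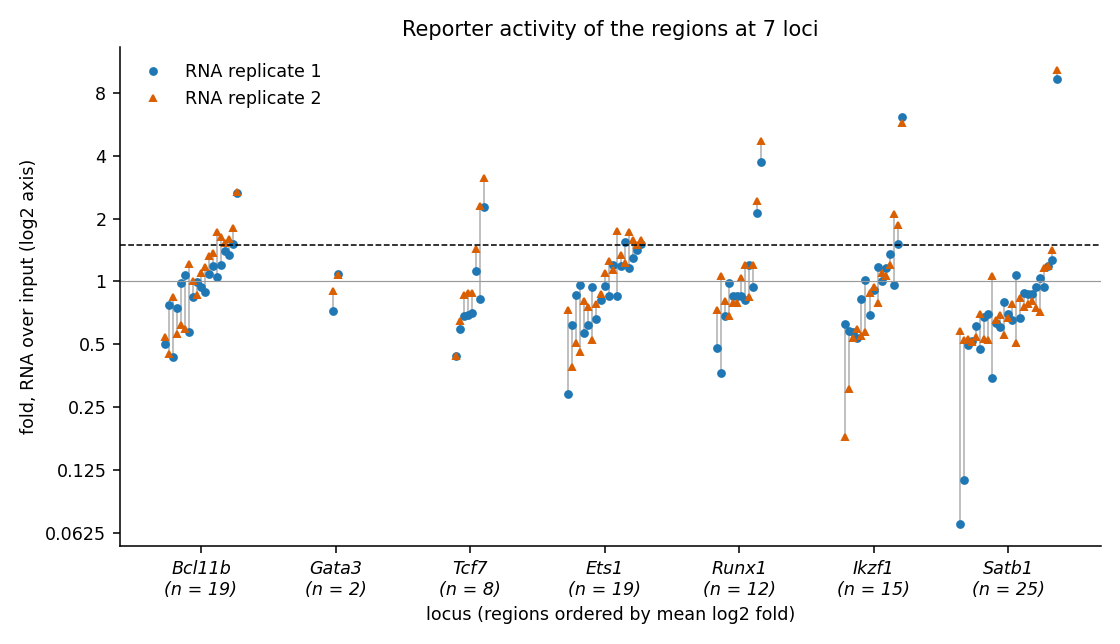
Fold of RNA over input (log2 axis) for each of the 100 regions, grouped by locus and ordered by mean log2 fold, with a circle for RNA replicate 1, a triangle for replicate 2 and a grey line joining them; the dashed line marks 1.5. The highest region of Satb1 stands at 9.30 and 10.3, and no other region of that window exceeds 1.41.

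At Tcf7, a single region stood out in both replicates. It lies on chromosome 11 from 52154475 to 52154874 and belongs to the class Enh_K4me1_K27ac_PolII, read here as an enhancer class named for H3K4me1, H3K27ac and RNA polymerase II. Its RNA FPKM was 78.7 in replicate 1 and 109.4 in replicate 2, over an input of 34.1, from 1256, 1820 and 452 reads. Both RNA values lay above the input, and the folds were 2.27 and 3.15 (log2 mean 1.42 ± 0.33, SD, n = 2). It ranked 231 of all 12897 regions by mean log2 fold. The nearest region began 950 bp further on, at 52155825, and stood at 0.591 and 0.648, below its input in both replicates. On the other side, the region from 52149475 to 52149874, named here after its values were seen, differed between replicates. Its RNA FPKM was 10.7 in replicate 1 and 31.6 in replicate 2 over an input of 13.2, which gives folds of 0.821 and 2.29. It was the single member that the authors' deposited table classes as active in 1 replicate and inactive in the other.

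The lowest Tcf7 region lay between 52122875 and 52123274, with 7.46 and 7.45 RNA FPKM against 18.3 in the input. Its folds were 0.439 in each replicate, with an SD of 0.00051 on the log2 scale (n = 2). It was the sole member at 0.5 or less in both replicates, a level that 6.79% of all regions reached and that was chosen after the values were seen. Its nearest neighbour, 1050 bp away at 52124325, stood at 1.12 and 1.43. The RNA of the Tcf7 window was concentrated in the highest region, which held 41.0% of the summed RNA FPKM in replicate 1, 41.5% in replicate 2 and 16.4% of the summed input.

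At Gata3, which encodes a zinc finger factor of early T cells and of type 2 helper cells, the tables held just 2 regions and neither was active. The region on chromosome 2 from 9415425 to 9415824 had 18.0 FPKM in each RNA library and 16.6 in the input, with folds of 1.08 in each. The other, from 9547075 to 9547474, had 4.26 and 5.59 RNA FPKM against 6.33 in the input and folds of 0.717 and 0.898. Both lie in the first part of the window, and the remaining 453 kb up to its end held no region. Gata3 had 0.333 regions per 100 kb of window, the lowest density, and Ets1 the highest with 3.80.

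At Bcl11b, 2 of 19 regions were active, 565.8 kb apart. The higher of them, on chromosome 12 from 109166125 to 109166524, gave nearly the same value in both replicates. It had RNA FPKM of 101.4 and 102.6 against 37.7 in the input, and folds of 2.65 and 2.68, the smallest spread among the 9 active members (log2 mean 1.41 ± 0.01, SD, n = 2). It ranked 234 of all regions, next to the Tcf7 region in size: the means of the pair, 1.41 and 1.42, differed by less than the spread between replicates. The weaker region, from 108600325 to 108600724, had 18.7 and 22.6 RNA FPKM against 12.1 in the input. Its folds of 1.51 and 1.81 lie close to the threshold. Bcl11b was the locus most affected by the choice of replicate, with 2 regions at 1.5 or more in replicate 1 and 6 in replicate 2.

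The lowest Bcl11b region was the neighbour of that weaker active region, 16850 bp from it. It spans 108583075 to 108583474, is of the class Enh_K4me1_K27ac, and had 12.2 and 13.3 RNA FPKM against 25.5 in the input. Its folds were 0.499 and 0.541. The Bcl11b window also held 1 of the 2 promoter-class members (Pro_K4me3_K27ac_PolII), from 109424626 to 109425025. With 19.99 and 24.2 RNA FPKM over 24.1 in the input it lay at its input level, with folds of 0.838 and 1.01. The longest step between the starts of consecutive members in any window was also here, 283350 bp after the region at 108600325.

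At Ets1, a founding member of the ETS factor family, 1 of 19 regions was active and 9 lay below their input in both replicates. Over all regions the shares were 8.51% and 50.8%. The active region lies on chromosome 9 from 32736175 to 32736574. Its RNA FPKM was 55.8 and 58.0 over an input of 36.4, and its folds of 1.52 and 1.58 only just passed. The region that begins at 32733850, 1925 bp before it, reached 1.41 in replicate 1, met the threshold in replicate 2, and was the member closest to the threshold from below. Their mean log2 folds differed by 0.09. The region on the other side, 1900 bp away at 32738475, stood at 0.939 and 0.521. Taken by itself, replicate 2 put 5 Ets1 regions at 1.5 or more, and replicate 1 put 2.

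The highest fold of any Ets1 region in either replicate was 1.74, lower than the highest at each of the other loci apart from Gata3 at 1.08. The lowest Ets1 region, from 32338625 to 32339024, had 5.70 RNA FPKM in replicate 1 and 15.99 in replicate 2 over an input of 22.3. Its folds were 0.287 and 0.728, so the RNA lay below the input in both replicates by amounts that differed by over 2-fold. The log2 folds of the replicates had a Pearson r of 0.533 across the 19 Ets1 regions, which share libraries and input, and of 0.493 without the highest of them.

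At Runx1, which encodes the DNA-binding subunit of core binding factor, 2 of 12 regions were active and both were classed so by the authors' deposited table. The stronger, on chromosome 16 from 92801775 to 92802174, had an RNA FPKM of 260.1 in replicate 1 and 329.0 in replicate 2, over an input of 69.2. These came from 4152, 5474 and 918 reads. Both RNA libraries lay far above the input, with folds of 3.72 and 4.70 (log2 mean 2.06 ± 0.24, SD, n = 2) and rank 63 of all regions. A region that begins 750 bp after its end, at 92802925, had folds of 0.981 and 0.683 and thus lay below its input.

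The second active Runx1 region, from 92644675 to 92645074 and 157.1 kb before the first, had 154.1 and 175.9 RNA FPKM against 72.2 in the input. Its folds were 2.12 and 2.42, and its rank was 389. The nearest region, 2900 bp away at 92641375, stood at 0.683 and 0.801. The lowest region of the locus, from 92871525 to 92871924, had folds of 0.477 and 0.733 with 12.3 and 19.4 RNA FPKM over 26.8 in the input. Summed over its 12 regions, Runx1 had 1.59 times as much RNA as input FPKM in replicate 1 and 1.76 times in replicate 2, the highest ratios among the loci in both. The stronger region held 38.9% and 44.5% of that RNA and 16.5% of the input, and without it the ratios were 1.16 and 1.17. The median region was below its input, with folds of 0.851 and 0.942.

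At Ikzf1, which encodes Ikaros, a zinc finger factor of lymphoid cells, 2 of 15 regions were active. The first, on chromosome 11 from 11464225 to 11464624, had an RNA FPKM of 53.4 in replicate 1 and 49.8 in replicate 2, over an input of 7.84. Its folds were 6.15 and 5.75 (log2 mean 2.57 ± 0.07, SD, n = 2), and it ranked 27 of all regions. The input value rested on 104 reads, fewer than the 918 at Runx1, so counting error in the shared input weighs more on this fold. The nearest region, 6125 bp away at 11457700, stood at its input level with folds of 0.9996 and 1.09. This region held 16.1% and 15.9% of the RNA of the window but 2.20% of its input.

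The second active Ikzf1 region, from 11789125 to 11789524, was weak and thinly covered. Its input was 4.00 FPKM from 53 reads, with 6.52 and 8.35 FPKM in the RNA libraries and folds of 1.504 and 1.87. It dropped out when regions under 100 input reads were left out, which leaves 1 active region at Ikzf1. The promoter-class region of this window, from 11584476 to 11584875, had 20.6 and 18.3 RNA FPKM over 15.0 in the input. Its folds of 1.35 and 1.204 lay above the input and below the call. The lowest region, from 11720425 to 11720824, differed widely between replicates, where 86 and 14 RNA reads stood over 123 in the input, with folds of 0.622 and 0.179.

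At Satb1, the largest group with 25 regions, a single region passed the call. It lies on chromosome 17 from 52421625 to 52422024 and had an RNA FPKM of 216.7 in replicate 1 and 240.2 in replicate 2, over an input of 22.4. The reads behind these values were 3458, 3997 and 297. Folds of 9.30 and 10.3 placed it at rank 4 of the whole table. Its mean log2 fold was 3.29 and that of the strongest Ikzf1 region 2.57, with SDs of 0.10 and 0.07 (n = 2 each). The replicate values of these regions did not overlap. Both SDs leave out the counting error of the shared input, which rested on 297 and 104 reads, and the gap was not tested. The other 24 Satb1 regions ranged from 0.069 to 1.41. Of the 25, 18 lay below their input in both replicates, beside 50.8% of all regions.

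The nearest captured region to the Satb1 peak of activity was 24450 bp away, at 52446475, with folds of 0.476 and 0.698. The active region held 25.3% and 27.5% of the RNA FPKM of the window against 2.55% of its input. Summed over all 25 regions, RNA was 0.972 and 0.993 times the input, and without the active region it was 0.745 and 0.738 times the input. The lowest Satb1 region, from 52356825 to 52357224, had no RNA read in replicate 1 (0) but 123 in replicate 2, over 179 in the input. Another, from 52020075 to 52020474, had 4 and 81 over 135. These 2 regions and the lowest of Ikzf1 were the members whose replicates differed most among those with at least 100 input reads, and their low means rest on 1 library each.

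**Figure D2:**
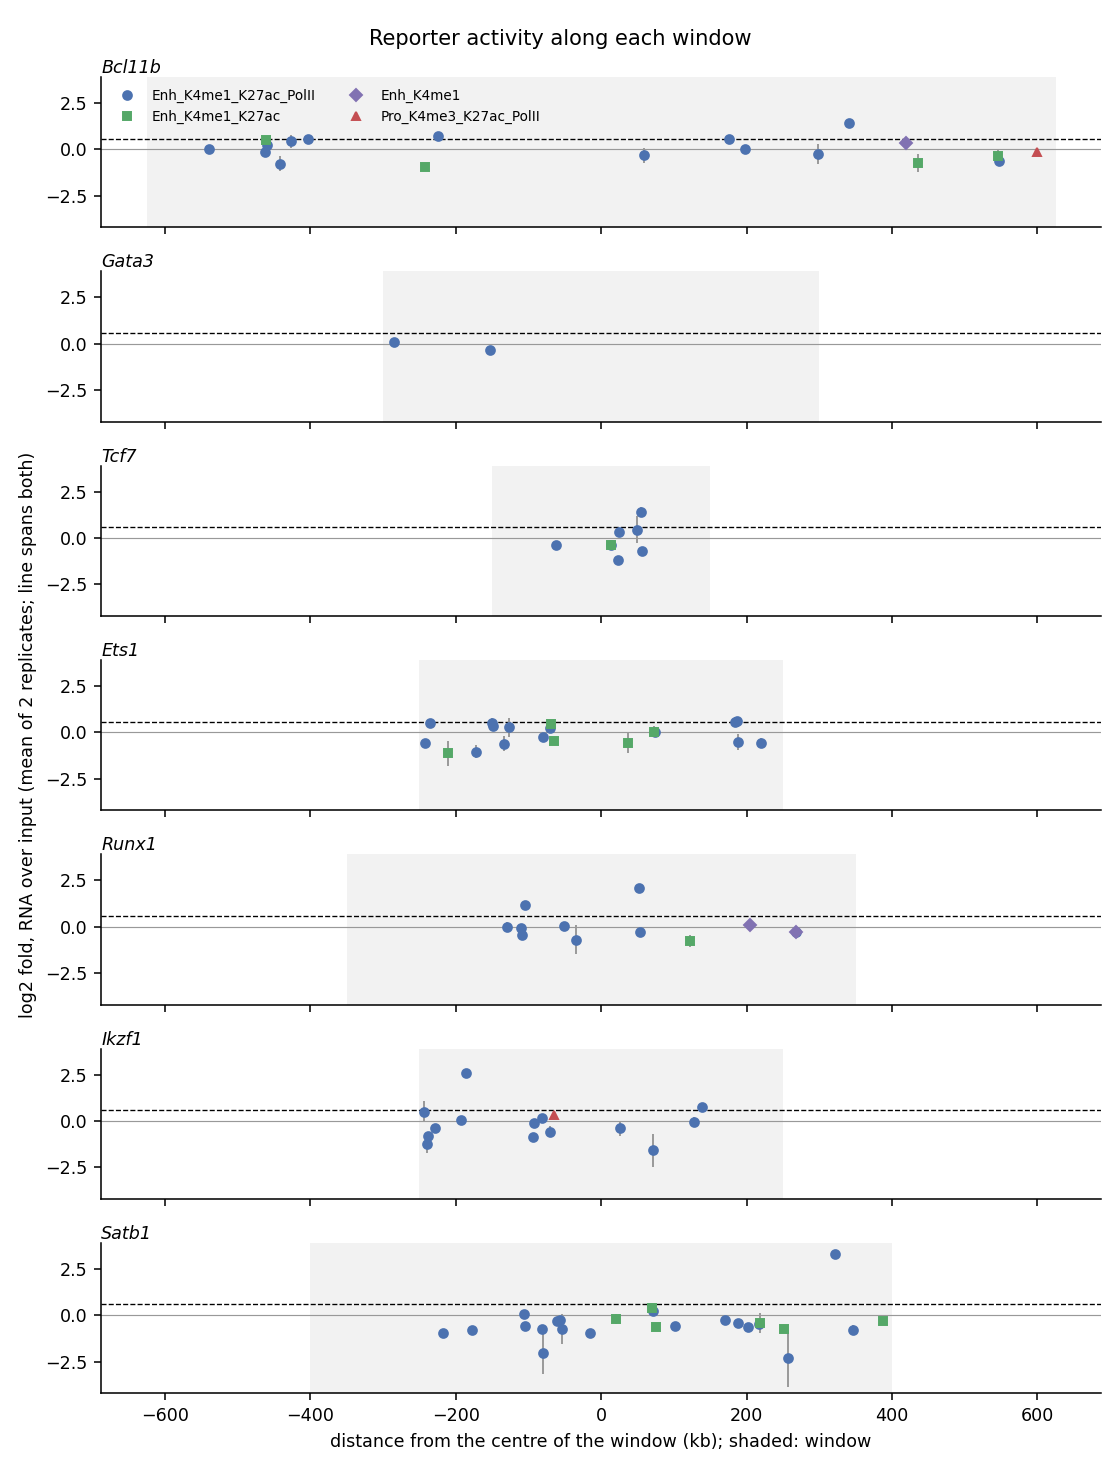
Mean log2 fold of RNA over input (y) against distance in kb from the centre of each window (x), with a panel per locus, the window shaded, symbols by region class and a line spanning both replicates; the dashed line marks a fold of 1.5. The highest regions of Runx1, Ikzf1 and Satb1, at 2.06, 2.57 and 3.29, stand above all other regions of their windows.

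Ordered by their highest region, the loci ran Satb1, Ikzf1, Runx1, Tcf7, Bcl11b, Ets1 and Gata3, with mean log2 folds of 3.29, 2.57, 2.06, 1.42, 1.41, 0.63 and 0.11. Tcf7 and Bcl11b did not differ beyond their spread. By the median region, log2 folds were 0.03 at Ets1, 0.02 at Bcl11b, -0.10 at Gata3, -0.11 at Ikzf1, -0.19 at Runx1 and -0.35 at Tcf7. These 6 medians have no firm order: without overlapping regions Ets1 stood at -0.24 and Tcf7 at -0.02. With an input minimum of 100 reads Ets1 stood at -0.11 and Gata3 at 0.11. Satb1, first by its highest region, had the lowest median, -0.56. The medians of Satb1 in the separate replicates were folds of 0.694 and 0.698. Those of Bcl11b were 0.993 and 1.17 and those of Ets1 0.939 and 1.10, so both lay above Satb1 in each replicate. Tcf7, at 0.698 and 0.877, was level with Satb1 in replicate 1. The median of the 478 Random control regions was 0.657 and 0.679. Over all 100 members the median log2 fold was -0.28, beside -0.25 over all regions.

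All 9 active members were of the class Enh_K4me1_K27ac_PolII, which made up 78 of the 100 members and 58.9% of all regions. Within that class 9 of 78 members were active, beside 8.86% of the class as a whole. None of the 17 members of Enh_K4me1_K27ac was active (5.22% of that class), nor were the 3 of Enh_K4me1 (3.68%) and the 2 of the promoter class (16.8%). With so few members in these classes, a count of 0 does not set them apart. The windows held no region of the Random, TSS_Random and Add_Ctl classes, so no control region lies inside them. The highest Random folds were 2.87 in replicate 1 and 2.85 in replicate 2. The 3 strongly active members exceed these by the call itself, and no other member exceeded both. The share of all regions above both values was not counted.

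No active member had an active region as its nearest neighbour. For 4 of the 9, another region lay within 5 kb of them without overlap, and at none of these 4 was the nearest region active. Over the whole tables, 244 of 1098 active regions had such a neighbour, and the neighbour was active at 15 of them, or 6.15%. The nearest region was active at a similar share, 7.21%, for inactive regions. Within 5 kb there were 29 pairs of members that did not overlap. The 7 pairs that included an active region differed by a median of 1.27 in mean log2 fold, and the 22 pairs of inactive regions by 0.54. All 7 came from the same 4 active regions, and a region can enter more than 1 pair, so the pairs are not independent. The call itself favours a larger difference in pairs that include an active region. The distance and the pairs were chosen after the values were seen.

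**Figure D3:**
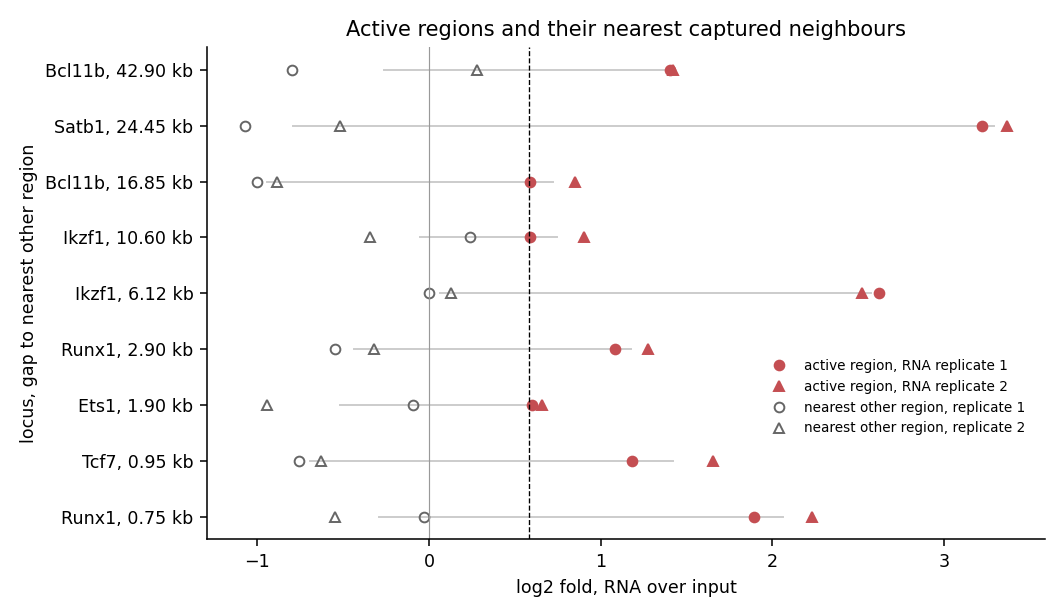
Log2 fold of RNA over input (x) for the 9 active regions (red) and the nearest other region that does not overlap (open grey), with circles for RNA replicate 1 and triangles for replicate 2, sorted by the gap between the regions (y). Each of the 9 nearest regions lies below the dashed line at a fold of 1.5 in both replicates, at gaps of 750 bp to 42900 bp.

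Among the members, 6 regions in 3 pairs overlapped and so share reads. At Runx1, the regions from 93017399 and 93017425 share 374 bp and have identical folds of 0.851 and 0.792. At Tcf7, those from 52113125 and 52113225 share 300 bp and stood at 0.703 and 0.875 against 0.692 and 0.879. At Ets1, those from 32623025 and 32623375 share 50 bp and stood at 0.850 and 1.25 against 0.949 and 1.10. No active region overlapped another, so these pairs do not enter the 9.

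The 9 active members had SDs of the log2 fold from 0.01 to 0.33 between replicates; the call asks for a high fold in both and so leaves out regions that were high in 1 replicate alone. Over the 100 members 12 differed by over 2-fold, beside 12.9% of all regions. Those 12 had a median of 169.5 input reads and the other members 321.5. Log2 folds of the 2 replicates correlated across the members with r = 0.6996, and across the 91 inactive members with r = 0.430; the input is shared and enters both folds. At Satb1, r fell from 0.696 to 0.375 without its highest region.

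**Figure D4:**
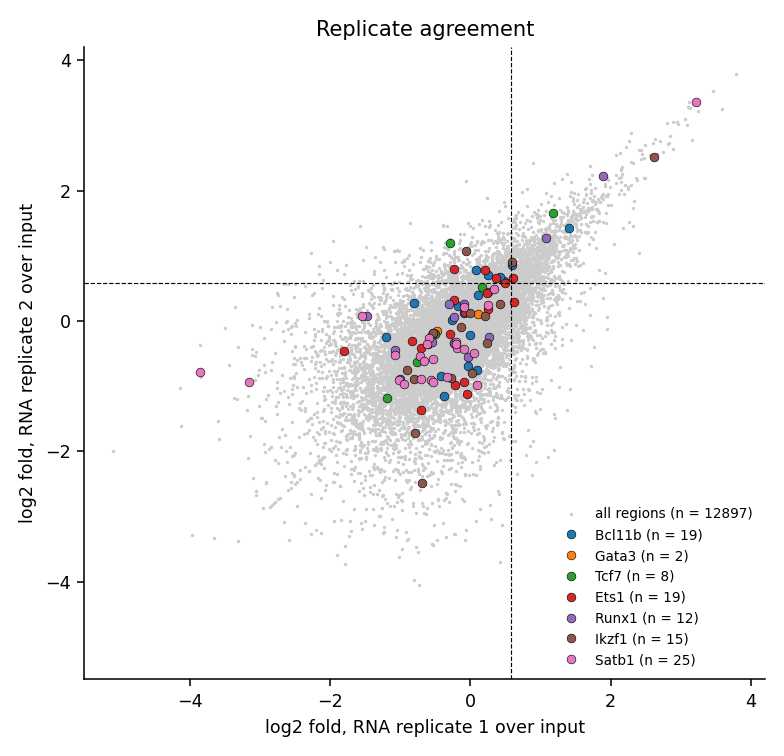
Log2 fold of RNA over input in replicate 1 (x) and replicate 2 (y), with all 12897 regions in grey and the members coloured by locus; dashed lines mark a fold of 1.5. The 9 active members lie in the upper right, 10 further members lie above the horizontal line alone (783 of all regions), and 1 lies to the right of the vertical line alone (653 of all regions).

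Replicate 2 gave the higher fold at 61 of the 100 members, beside 51.3% of all regions. The excess lay at Tcf7 (7 of 8), Bcl11b (14 of 19), Ets1 (13 of 19) and Runx1 (8 of 12), while Ikzf1 had 6 of 15 and Satb1 12 of 25. Members that reached 1.5 in replicate 2 alone were 10, beside 6.07% of all regions, and 4 of them were at Bcl11b and 4 at Ets1. In replicate 1 alone there was 1, at Ets1, beside 5.06% of all regions.

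The nearest region beyond each window edge was not active, but many lay far off. Their distances ran from 2.13 kb to 4559.5 kb, both at Ikzf1, and reached 2124 kb at Ets1 and 702 kb at Gata3. Close surroundings were therefore often not captured. At Ikzf1 the last region before the window, 2.13 kb outside it, had folds of 1.55 and 0.769, and the first inside, 6.18 kb from the edge, had 0.956 and 2.10. At Satb1 the next region after the window, 107.8 kb outside it, had 0.902 and 2.36, and the last inside had 0.868 and 0.781. None of these 4 was active in both replicates. The last Ikzf1 region inside was the weak active one already described, 110.9 kb from the edge. At the other 5 loci the regions nearest to both edges, inside and outside, all stayed under 1.5 in both replicates.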

How the data were processed

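For each RNA replicate the authors deposited a table of the same regions, with the FPKM of the RNA library and of the shared input, their fold as a ratio, and an active or inactive class, per the file headers. The deposited ratio equals RNA FPKM plus 1 over input FPKM plus 1 (largest difference 4.8e-14). Bowtie2, TopHat2, Bowtie 1.2.2 and build mm9 are named, without roles, in the submitters' processing notes; filters are not given in the sources used here. Members were selected by start position. Reads were recovered from FPKM steps (100% whole within 0.1 reads in each library, for regions of 400 bp) and used to describe depth and to set an input minimum of 100 reads; no count model was fitted. The members and lists were chosen with earlier results of these data known. Named regions were up to 4 active regions per locus (the highest if none), the lowest per locus, promoter-class regions, and the 3 with the widest replicate difference. Python 3.11.15 and pandas 2.3.3 were used, and the steps were tested on simulated data. No sequences are shown, since none of build mm9 was at hand.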

Additional observations from a re-analysis of the deposited data

How the results depend on the processing

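The 3 strongly active members stayed 3 with pseudocounts of 0.1 and 5 FPKM. The input minimum, leaving out overlapping regions and keeping Enh classes alone remove none of the 3. Those settings could therefore not change the count. Without replicate 1, 4 members were strongly active, and a fold of 4 in both replicates left 2. At a fold of 2, 6 members were active. Centring on the Random class gave 28 active and 6 strongly active members and moved the median log2 fold from -0.28 to 0.30. Leaving out 1 replicate gave 10 to 19 active members and medians of -0.22 to -0.21. The median was -0.30 with a pseudocount of 0.1 FPKM, -0.23 with 5, and -0.27 without overlapping regions. With 5 FPKM 6 members were active, and Bcl11b, Ets1 and Ikzf1 each had 1 fewer. Shares over all regions were not counted at folds of 2 and 4 or with other pseudocounts. Nor were they counted for strongly active regions without replicate 1. Nothing is read from the member counts at these settings. For single loci, 42 of 56 counts of active regions stayed within 1.5 times. Many of these were fixed beforehand. Leaving out overlapping regions and keeping Enh classes alone removed no active region, so neither could change a count. No paired analysis was possible because both replicates are measured over a common input and the labels name no pairing with another group. The error of that input was not measured, and every fold holds it.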
